A study of Mus musculus with 3 samples.

Results

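Lepr, Insr, Igf1r, Irs1 and Irs2 encode the leptin receptor, the insulin receptor, the IGF-1 receptor and the adaptor proteins that insulin and IGF-1 receptors use to pass on their signal. These 5 genes were taken by symbol from the 55450 features counted in single cells of mouse pancreas, and all 5 were found. In cells that passed the filters they held 10268 UMIs (unique molecular identifiers, each marking 1 captured RNA molecule) of 165715022. By gene, Lepr had 85 UMIs, Irs1 184, Irs2 2269, Insr 2295 and Igf1r 5435.

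There were 3 pancreas libraries, 1 for each group. None and diabetic came from sedentary mice and diabetic-Exercise from exercised mice. According to the design text, male db/db mice aged 6 weeks ran on a treadmill. For none, the sources used here state no genotype, strain or age, and for no group do they state how many mice were pooled. Groups are given below in the order none, diabetic, diabetic-Exercise. Mice homozygous for the db allele carry a change in Lepr that spoils splicing of the long, signalling form of the receptor, and become obese and diabetic. The 3-prime kit used here counts UMIs per gene, so Lepr forms were not told apart and Lepr counts check no label.

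Insulin and IGF-1 bind related receptor tyrosine kinases, Insr and Igf1r, which phosphorylate Irs1 and Irs2. The adaptors then recruit phosphatidylinositol 3-kinase and activate Akt, which holds FOXO transcription factors out of the nucleus. Irs2 is a well-known gene that FOXO factors raise when insulin signalling is low. Leptin, made by fat cells, acts through Lepr and the kinase Jak2 on Stat3, whose target Socs3 damps the signal. In the pancreas, acinar cells secrete digestive enzymes, ductal cells line the tubes that carry them, and insulin comes from the islets.

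The libraries held 9958, 12743 and 18433 barcodes with 54128454, 80185752 and 45209034 UMIs. After filtering, 8710, 11019 and 15068 cells remained, with median depths of 4159.5, 5125 and 1982 UMIs. The diabetic-Exercise library stood apart: a median of 7.00% of UMIs were mitochondrial, against 0.708% and 2.21%, and 10110 of its kept cells fell in clusters rich in acinar RNA that could not be named. Across pairs of libraries, 99 kept barcodes were shared. Cells were named from marker genes as acinar-like (6371, 6297 and 2501 cells), ductal-like (204, 794 and 1208), endothelial-like (121, 550 and 387), fibroblast-like (298, 527 and 324), macrophage-like (343, 236 and 227) and mural-like (45, 145 and 88), mural cells being the pericytes and smooth muscle around vessels. Of the class's own markers, 18 to 20 of 20 were each seen in at least 10% of ductal-like cells of a library, 19 to 21 of 21 in endothelial-like and 19 or 20 of 20 in fibroblast-like cells. Erythroid-like barcodes entered the fit but held only 3 UMIs of Insr and 4 of Igf1r and are not described. Levels are scaled CPM, UMIs relative to the total of the class in that library (CPM) after TMM scaling over all classes. The scaling factors of acinar-like cells were 0.242, 0.213 and 0.302, against 1.11 to 2.35 in the other 5 classes described, so comparisons with acinar-like cells depend on the scaling.

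In the GENCODE M21 annotation of GRCm38, which matches all 55450 features by identifier and symbol, Lepr lies at chr4:101717404-101815352 on the plus strand and Igf1r at chr7:67952827-68233668 on the plus strand. Irs1 lies at chr1:82233101-82291416, Insr at chr8:3122061-3279617 and Irs2 at chr8:10984681-11008458, all on the minus strand. Irs1 and Irs2 have 2 exons and 1 annotated coding transcript each, while Lepr has 4 coding transcripts with 4 different 3′ ends. Insr, Irs1 and Irs2 each overlap at least 1 annotated gene on the opposite strand, so reads of both could be confused where counting ignores strand. Leprot, which shares its name with Lepr, ends 58039 bases before Lepr starts in this annotation and was counted as a gene of its own.

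The promoters of Lepr, Irs1 and Irs2 are shown because these genes had the most restricted or most changed levels. They are RefSeq sequences of GRCm38.p6, from 250 bases before to 50 after a start site, 5′ to 3′ on the gene's strand. Lepr has another RefSeq promoter, at chr4:101717157-101717456, with no match to any motif searched. Capitals mark matches on either strand to TGTTTAC (FOXO), TGTTTTG (insulin response element), TTCNNNGAA (STAT), TGACG (CRE core), CCGGAAG (ETS) and GGGCGG (GC box).
Lepr, chr4:101717656-101717955, plus strand: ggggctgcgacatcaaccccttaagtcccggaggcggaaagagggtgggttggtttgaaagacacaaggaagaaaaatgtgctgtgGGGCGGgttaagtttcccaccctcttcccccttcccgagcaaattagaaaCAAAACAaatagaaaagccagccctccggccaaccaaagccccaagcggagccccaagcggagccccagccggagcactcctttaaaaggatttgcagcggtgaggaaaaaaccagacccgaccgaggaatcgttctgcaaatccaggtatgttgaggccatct
Irs1, chr1:82291390-82291689, minus strand: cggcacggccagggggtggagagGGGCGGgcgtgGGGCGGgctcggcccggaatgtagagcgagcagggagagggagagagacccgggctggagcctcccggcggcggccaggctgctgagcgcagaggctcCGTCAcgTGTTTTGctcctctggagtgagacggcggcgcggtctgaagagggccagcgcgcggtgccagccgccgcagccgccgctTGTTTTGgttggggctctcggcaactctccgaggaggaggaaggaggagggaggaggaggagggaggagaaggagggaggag
Irs2, chr8:11008880-11009179, minus strand: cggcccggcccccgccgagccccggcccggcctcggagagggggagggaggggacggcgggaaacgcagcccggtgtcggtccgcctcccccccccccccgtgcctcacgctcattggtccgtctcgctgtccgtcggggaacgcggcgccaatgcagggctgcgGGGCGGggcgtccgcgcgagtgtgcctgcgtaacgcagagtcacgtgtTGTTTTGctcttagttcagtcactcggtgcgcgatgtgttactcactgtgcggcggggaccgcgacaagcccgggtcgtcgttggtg
TGTTTTG was found in each of these 3 windows (on the opposite strand in Lepr) and in 6.28% of 32851 RefSeq promoters of the same length. GGGCGG was also in each, and in 35.7% of all promoters. TGACG was in Irs1 alone of the 3 and in 20.8% of all promoters. TGTTTAC, TTCNNNGAA and CCGGAAG were in none of the 3 windows, and in 3.65%, 8.30% and 8.86% of all promoters. The Igf1r promoter held 2 GC boxes and no other match.

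Which cells carry the receptors and adaptors was asked by comparing classes, with the 3 libraries as replicates and the library as a block. Of 105 tests of a member in a pair of classes, 52 passed at an adjusted p of 0.05 (edgeR quasi-likelihood test, Benjamini-Hochberg over 10449 genes per pair), or 15 of 21 for Igf1r, 14 for Irs2, 8 for Lepr, 8 for Irs1 and 7 for Insr. Over all genes and pairs 35.8% passed. The libraries differ in treatment, so the spread between them holds both treatment and library differences.

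**Figure D1:**
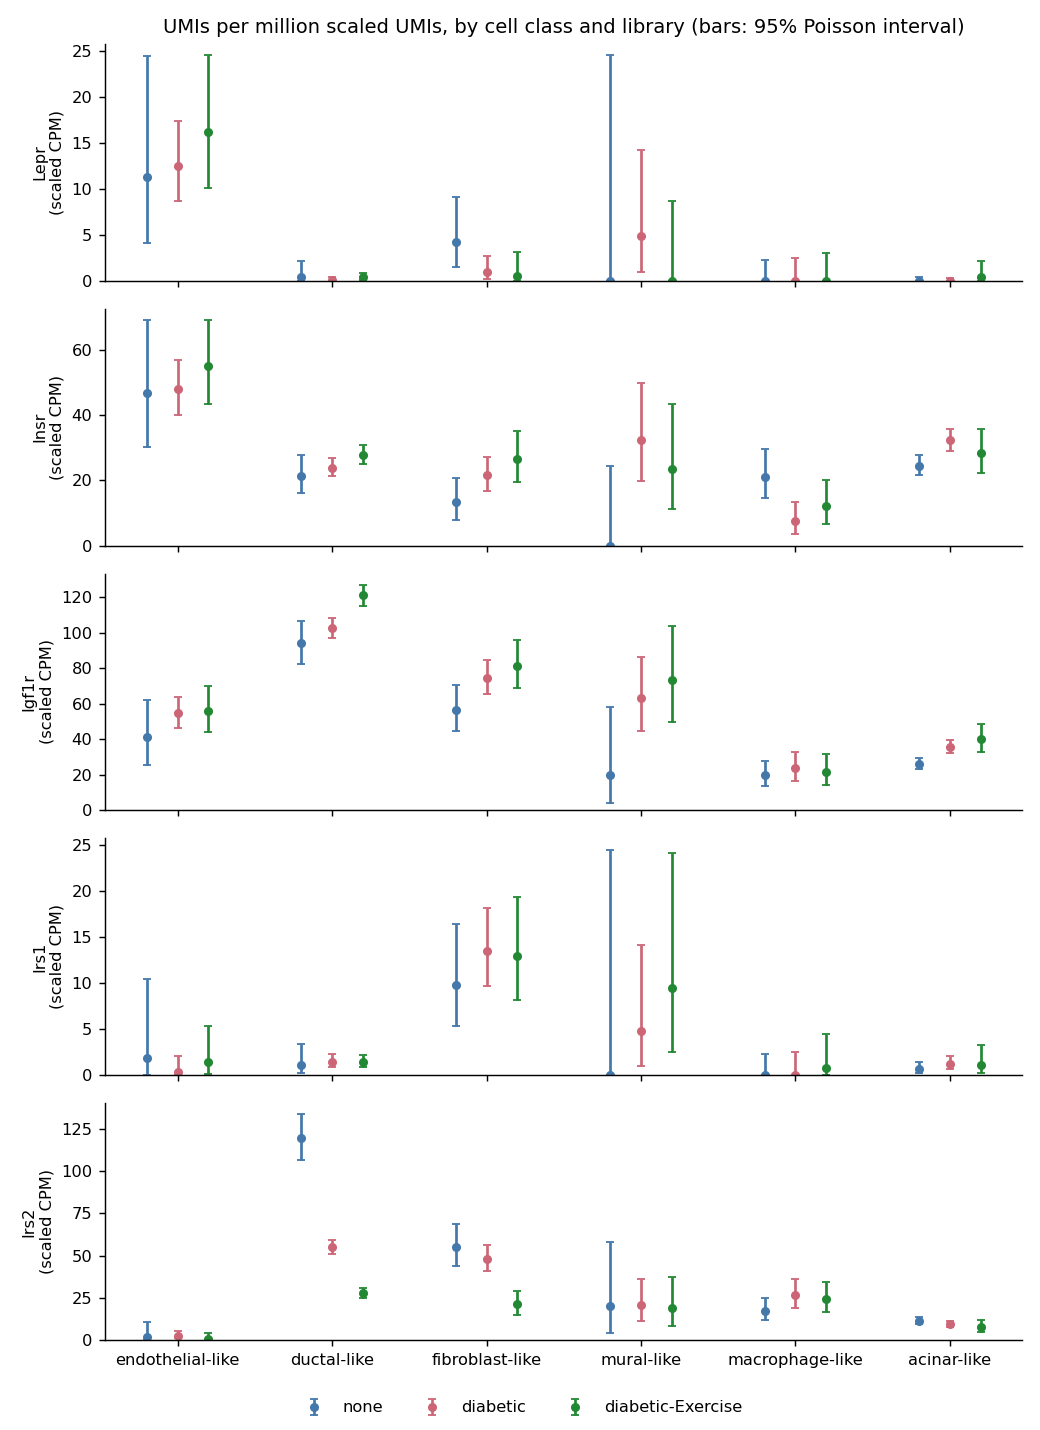
Level of each gene (scaled CPM, linear axes from 0) by cell class in the 3 libraries; bars are exact 95% Poisson intervals of the UMI count. Lepr and Insr are highest in endothelial-like cells, Igf1r in ductal-like cells, Irs1 in fibroblast-like cells, and Irs2 differs most between libraries in ductal-like cells.

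Lepr RNA was found mainly in endothelial-like cells, which held 62 of its 85 UMIs. Its level there was 11.2, 12.5 and 16.2 scaled CPM, a mean of 13.3 ± 2.57 (SD, n = 3 libraries), and the share of cells with a Lepr UMI was 4.96%, 5.27% and 5.43% (exact 95% intervals 1.84 to 10.5, 3.56 to 7.49 and 3.39 to 8.18). With each cell thinned to 1000 UMIs, 1 of 115, 5 of 517 and 12 of 324 cells had a Lepr UMI, or 0.870%, 0.967% and 3.70%, so the near-equal shares were seen at full depth only. The thinned counts are close to the level of 1 UMI and no difference between libraries is read from them. All 3 endothelial-like levels lay above every level of the other named classes. Fibroblast-like cells had 6, 3 and 1 Lepr UMIs, 4 of the 6 in a single cell, mural-like cells 0, 3 and 0, and ductal-like cells 1, 1 and 5.

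Lepr was higher in endothelial-like cells than in 4 of the 5 other classes, where 19.9% of genes were higher over the same pairs. The fitted log2 difference was 3.07 over fibroblast-like (edgeR adjusted p 0.0002945), 5.58 over ductal-like (edgeR adjusted p 3.805e-08) and 7.44 over acinar-like cells (edgeR adjusted p 9.145e-09). Macrophage-like cells had 0 Lepr UMIs, and endothelial-like cells were at least 19.3-fold higher against a floor of 3 UMIs over the libraries (edgeR adjusted p 9.094e-06). Over mural-like cells the log2 difference of 2.40 did not pass (edgeR adjusted p 0.0609). Mural-like levels rested on 3 UMIs in 1 library. Below the top, the order was fibroblast-like, mural-like, ductal-like, acinar-like and macrophage-like, and no neighbours in it differed beyond the spread.

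Lepr UMIs in acinar-like cells were counted as the background, and the part of free RNA was not tested. By all UMIs, acinar-like cells were deeper than endothelial-like cells in every library (median 4642, 6836 and 2382 against 2823, 2496 and 1892). Acinar markers made up a median of 86.2%, 86.1% and 79.5% of their UMIs, against 51.9%, 31.6% and 46.9% in endothelial-like cells. Depth outside these markers was not compared. In acinar-like cells, 0 of 6371, 0 of 6297 and 1 of 2501 had a Lepr UMI. The 2 counts of 0 allow a share of up to 0.0471% and 0.0476% of cells with a UMI (3 counts of the total, counting error only), which is no limit on cells expressing the gene. Of the 56 endothelial-like cells with a Lepr UMI, 50 had 1 UMI, and these 56 were deeper than the rest (median 3856 against 2298.5 UMIs). The part of depth in which cells showed a Lepr UMI was not tested. Lepr UMIs were seen both in endothelial-like cells with a UMI of the large-vessel genes Vwf, Bgn, Mgp or Fbln5 (0, 9 and 11 UMIs) and in the others (6, 25 and 11).

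Leprot, a membrane protein gene known for lowering leptin receptor at the cell surface, was more widely spread than Lepr. Its endothelial-like level was 60.0, 60.9 and 31.6 scaled CPM, and its ductal-like level 27.9, 31.0 and 25.1. The endothelial-like excess over ductal-like cells passed (log2 0.82 in size, edgeR adjusted p 0.001495). The genes whose level followed Lepr most closely over 21 class and library sums were Adgrf5 (Pearson r 0.944 on log2 CPM with an offset of 10), Clec14a (0.939) and Clic5 (0.934). These correlations describe sums that share libraries and depth.

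**Figure D2:**
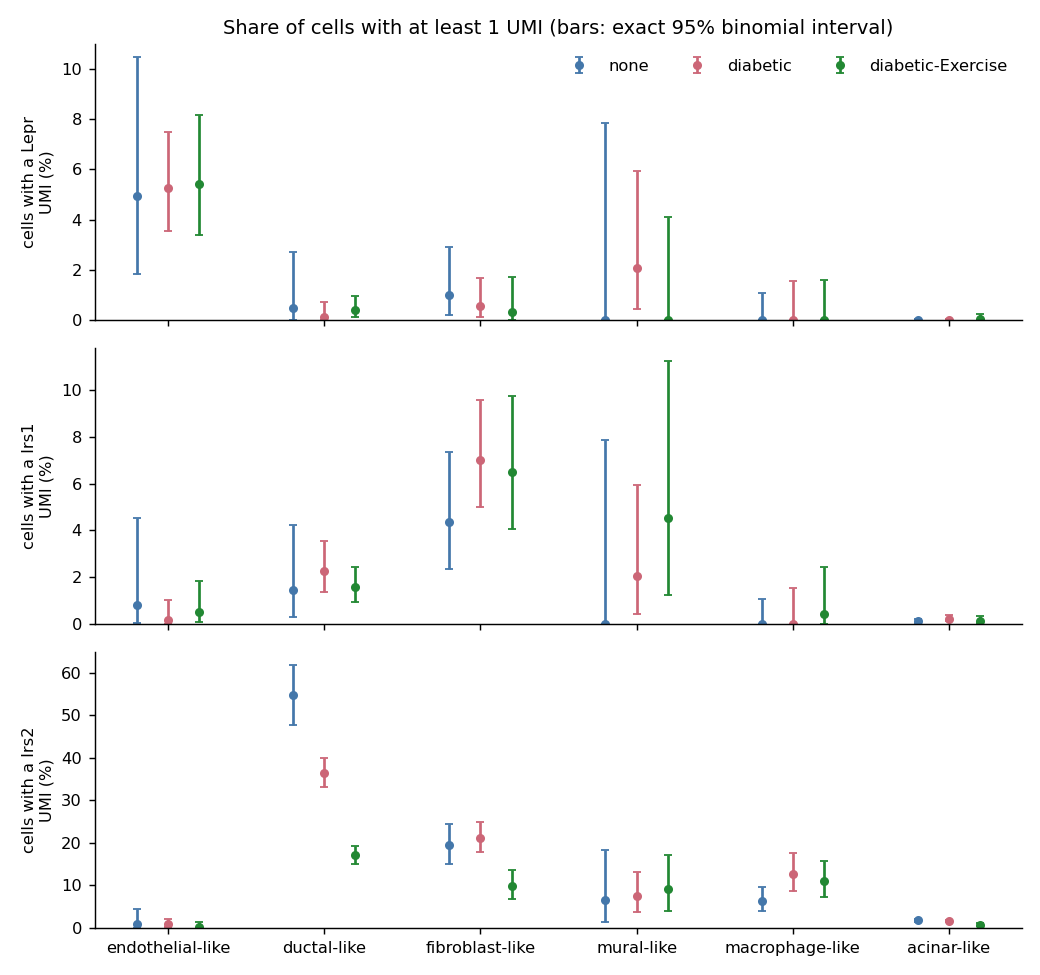
Share of cells with at least 1 UMI of Lepr, Irs1 or Irs2 (percent, linear axes from 0) by class and library at full depth; bars are exact 95% binomial intervals. At full depth Lepr is near 5% in endothelial-like cells of all 3 libraries, which does not hold after thinning (0.870%, 0.967% and 3.70%), Irs1 peaks in fibroblast-like cells, and Irs2 in ductal-like cells is at 54.9%, 36.5% and 17.1%.

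Insr, the insulin receptor, was highest in endothelial-like cells but had UMIs in every class described here. The endothelial-like level was 46.9, 48.0 and 55.2 scaled CPM, a mean of 50.02 ± 4.48 (SD, n = 3). Every endothelial-like level was above every acinar-like (24.5, 32.3 and 28.5), ductal-like (21.4, 23.9 and 27.9) and fibroblast-like level (13.3, 21.6 and 26.4). Macrophage-like cells were lowest on average, at 21.1, 7.45 and 12.1. Their rank against acinar-like cells rests on the scaling, since mean CPM without it was 18.1 in macrophage-like and 7.14 in acinar-like cells.

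Insr was higher in endothelial-like cells than in all 5 other classes, against the same 19.9% of genes. The log2 difference was 0.79 over acinar-like (edgeR adjusted p 0.005661), 1.02 over ductal-like (0.0009316), 1.26 over fibroblast-like (0.0003922), 1.82 over macrophage-like (1.362e-05) and 1.05 over mural-like cells (0.04321). The difference over mural-like cells was lost under several other settings, among them leaving out the diabetic (edgeR adjusted p 0.05533) or the diabetic-Exercise library (0.1891). Neighbours among the other classes did not differ beyond the spread, and the order of acinar-like and ductal-like cells turned under 4 other settings.

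Within endothelial-like cells, Insr was compared between cells with a UMI of Vwf, Bgn, Mgp or Fbln5, which mark larger vessels, and the others. Plain CPM was 157, 119 and 117 in large-vessel cells and 43.1, 61.6 and 65.5 in the others, but a few cells held many of these UMIs. In none, 8 of 9 large-vessel UMIs lay in 1 cell, and without the top cell of each subset the values were 22.7 and 27.6. In diabetic, 48 UMIs lay in 17 large-vessel cells, up to 10 in 1 cell, and without the top cell of each subset the values were 95.8 and 58.9. In diabetic-Exercise those values were 105 and 48.1. The share of cells with an Insr UMI was 13.3%, 15.7% and 21.9% in large-vessel cells and 9.43%, 13.8% and 9.20% in the others, with medians of 3539, 3037.5 and 2273 UMIs a cell against 2800, 2425 and 1691. The part of depth in this was not tested. The genes most like Insr in level were Cdc73 (r 0.841), Ctbp1 (0.813) and Myo6 (0.811).

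Igf1r, the receptor for IGF-1, was highest in ductal-like cells, which held 3146 of its 5435 UMIs. The ductal-like level was 94.1, 103 and 121 scaled CPM, a mean of 106 ± 13.9 (SD, n = 3). Fibroblast-like cells followed at 56.6, 74.5 and 81.5, then mural-like at 19.9, 63.0 and 73.2, endothelial-like at 41.2, 54.6 and 55.9, acinar-like at 26.3, 35.95 and 40.3, and macrophage-like at 19.9, 23.7 and 21.8. No level of the other 5 classes reached the lowest ductal-like level. The order of acinar-like and macrophage-like cells rests on the scaling, since mean plain CPM was 8.73 and 30.7. Among classes too small to fit, Igf1r plain CPM was 75.1, 252 and 273 in neutrophil-like cells (3, 15 and 8 UMIs) and 73.5, 44.7 and 216 in mesothelial-like cells (15, 2 and 13 UMIs), against 173, 228 and 285 in ductal-like cells.

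Igf1r was higher in ductal-like cells than in all 5 other classes, where 23.4% of genes were higher over the same pairs. The log2 difference was 0.59 over fibroblast-like (edgeR adjusted p 0.01172), 0.91 over mural-like (0.004775), 1.07 over endothelial-like (6.617e-05), 1.65 over acinar-like (7.462e-09) and 2.27 over macrophage-like cells (5.245e-10). Over fibroblast-like cells the call was lost without the diabetic (edgeR adjusted p 0.06335) or the diabetic-Exercise library (0.06977). Fibroblast-like, mural-like and endothelial-like cells, next to each other in the order, did not differ beyond the spread. The genes most like Igf1r in level were Aaed1 (r 0.966), Jade1 (0.910) and Brd3 (0.904).

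Irs1, an adaptor of both receptors, was scarce and, among the classes fitted, was highest in fibroblast-like cells. Mesothelial-like cells, too few to fit, had 3, 1 and 1 Irs1 UMIs, or 14.7, 22.3 and 16.7 plain CPM, against 12.1, 20.9 and 21.9 in fibroblast-like cells. These held 14, 43 and 23 Irs1 UMIs, or 51.3% of those in the 7 classes fitted, at 9.79, 13.5 and 12.9 scaled CPM (mean 12.1 ± 1.99, SD, n = 3). The share of fibroblast-like cells with an Irs1 UMI was 4.36%, 7.02% and 6.48%, against 0.110%, 0.222% and 0.120% of the acinar-like cells. Ductal-like cells were at 1.15, 1.43 and 1.43 scaled CPM and endothelial-like cells had 1, 1 and 2 UMIs.

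Irs1 was higher in fibroblast-like cells than in 4 of the 5 other classes, where 21.9% of genes were higher over the same pairs. The log2 difference was 3.19 over ductal-like (edgeR adjusted p 6.117e-08), 3.49 over acinar-like (1.873e-08), 3.80 over endothelial-like (6.712e-06) and 5.48 over macrophage-like cells (7.71e-07), the last against 1 UMI. Mural-like cells, with 0, 3 and 4 Irs1 UMIs, were not told apart from fibroblast-like cells (log2 1.14, edgeR adjusted p 0.2154). Most fibroblast-like Irs1 UMIs, 12, 34 and 22, lay in cells with a UMI of Pi16, Mfap5 or Dpp4, which mark adventitial fibroblasts around vessels and ducts. Plain CPM in those cells was 14.6, 25.03 and 28.0, against 5.95, 12.9 and 3.75 in other fibroblast-like cells. The Poisson intervals of the 2 subsets overlapped in every library. Crispld2 (r 0.954), Slit3 (0.948) and Gdf10 (0.945) were most like Irs1 in level.

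Irs2, the partner adaptor, was high in ductal-like and fibroblast-like cells and nearly missing from endothelial-like cells. Ductal-like cells held 313, 693 and 367 Irs2 UMIs, or 120, 55.0 and 27.7 scaled CPM, and fibroblast-like cells 79, 154 and 38, or 55.2, 48.2 and 21.4 scaled CPM. Macrophage-like levels were 17.4, 26.4 and 24.2, mural-like 19.9, 21.01 and 18.9, and acinar-like 11.5, 9.58 and 7.60. In endothelial-like cells only 1, 7 and 1 Irs2 UMIs were found in 1058 cells, or 1.88, 2.57 and 0.735 scaled CPM, below every level of the 5 other classes.

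All 5 other classes were higher in Irs2 than endothelial-like cells, where 19.3% of genes were higher over the same pairs. The log2 difference was 4.88 for ductal-like (edgeR adjusted p 5.337e-10), 4.33 for fibroblast-like (2.741e-08), 3.48 for macrophage-like (6.737e-06), 3.40 for mural-like (0.0005637) and 2.17 for acinar-like cells (0.001493). The acinar-like difference was lost with median-of-ratios size factors (log2 1.04, edgeR adjusted p 0.1442) and in DESeq2 (log2 1.20, adjusted p 0.09913). The share of endothelial-like cells with an Irs2 UMI, 0.826%, 0.909% and 0.258%, was below that of the acinar-like cells in each library. Acinar-like cells were deeper by all UMIs, most of them of acinar markers. On the scaled levels, endothelial-like cells had the highest Insr and the lowest Irs2 of these 6 classes. The Irs2 rank against acinar-like cells rests on the scaling, since mean plain CPM was 2.38 in acinar-like and 2.50 in endothelial-like cells. Ductal-like cells were higher in Irs2 than acinar-like (log2 2.71, edgeR adjusted p 6.744e-10), mural-like (1.48, 0.006467) and macrophage-like cells (1.40, 0.0001497), the mural-like call being lost without the diabetic library (edgeR adjusted p 0.0793). Over fibroblast-like cells their log2 difference of 0.55 did not pass (edgeR adjusted p 0.07077). The genes most like Irs2 in level were Cp (r 0.855), Fgfr1 (0.845) and Sdc4 (0.815).

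The 2 adaptors were unevenly split among classes. Of the summed Irs1 and Irs2 UMIs of a class, Irs2 made up 97.2% in ductal-like (exact 95% interval 96.2 to 98.0), 99.0% in macrophage-like (94.5 to 99.97) and 77.2% in fibroblast-like cells (72.5 to 81.5). The fibroblast-like share was 85.0%, 78.2% and 62.3% by library. These are shares of UMIs, and the balance was compared between classes, not as the level of one gene against the other.

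For the diabetic library over none, 20 of 30 combinations of a member and a class had at least 20 UMIs, and 4 of the 20 were at least 2-fold apart, against 10.9% of all genes measured in the same classes. For the diabetic-Exercise over the diabetic library, 20 were measured and 1 was at least 2-fold apart, against 7.64%. Both comparisons use the same diabetic library. With 1 library per group there is no replicate and no test, and the intervals given are exact conditional Poisson 95% intervals that cover counting error only.

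**Figure D3:**
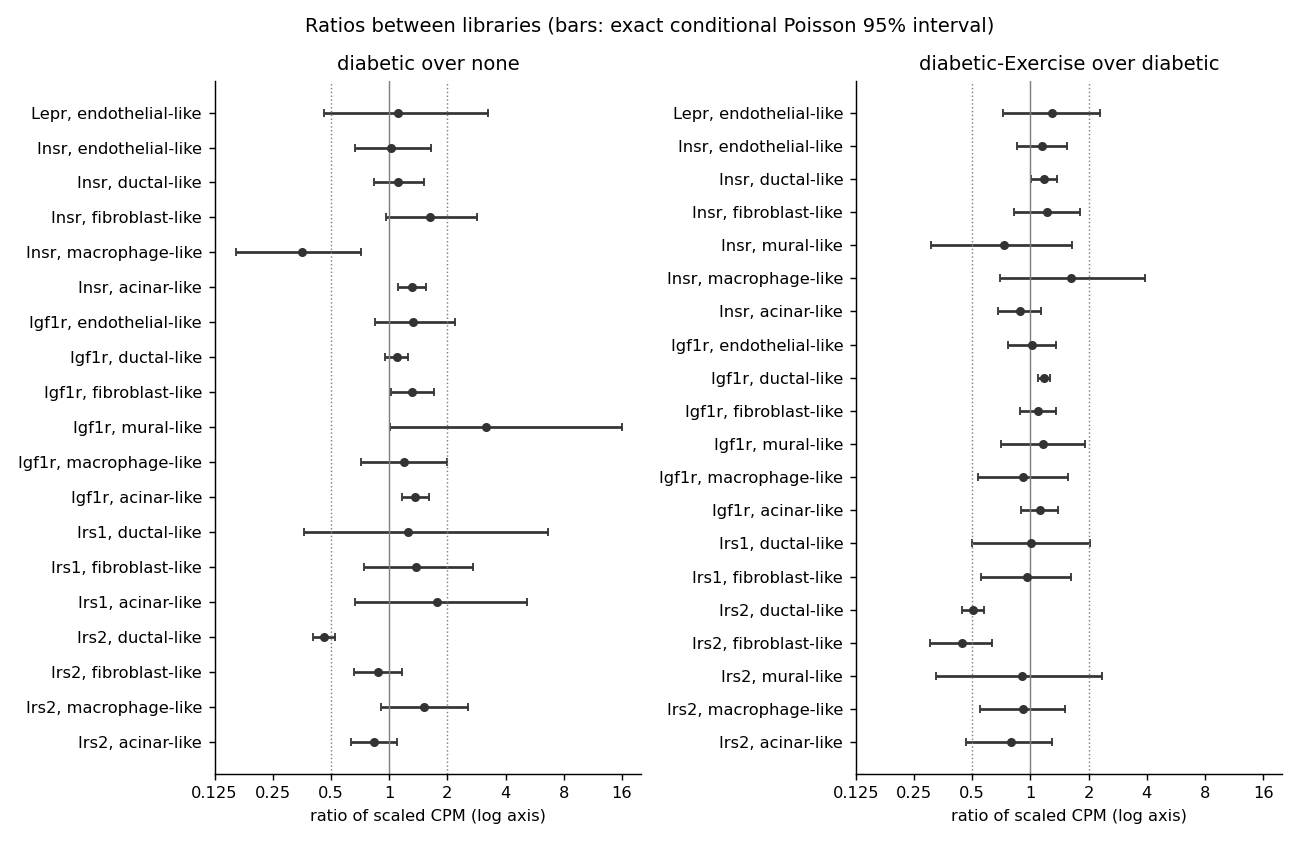
Ratio of scaled CPM between libraries (log axis) for each member and class with at least 20 UMIs over both libraries; bars are exact conditional Poisson 95% intervals, the solid line is no difference and dotted lines are 2-fold. Insr in mural-like cells (20 against 0 UMIs) has no finite ratio and is not drawn; Irs2 in ductal-like cells lies near 0.5 in both panels.

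Irs2 in ductal-like cells was lower in the diabetic library than in none, and lower again in the diabetic-Exercise library. The ratio of diabetic over none was 0.459 (0.401 to 0.527), where 3.54% of genes were at least 2-fold lower in these cells. Diabetic-Exercise over diabetic was 0.504 (0.443 to 0.573), just inside 2-fold, where 1.10% of genes were at least 2-fold lower. The share of ductal-like cells with an Irs2 UMI was 54.9%, 36.5% and 17.1% (exact 95% intervals 47.8 to 61.9, 33.2 to 40.0 and 15.05 to 19.4). In acinar-like cells the share was 1.77%, 1.57% and 0.800% at full depth. After thinning, the acinar-like share was 0.316%, 0.191% and 0.285%, resting on 20, 12 and 7 cells with an Irs2 UMI. An acinar-like share lower in diabetic-Exercise than in diabetic was therefore seen at full depth only.

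Mitochondrial share and cell makeup of ductal-like cells also differed between the 3 libraries, and their median depth was lower in diabetic-Exercise only. Ductal-like cells had median depths of 5229, 5390 and 2896.5 UMIs, medians of 1.17%, 3.29% and 5.91% mitochondrial UMIs and 37.6%, 20.9% and 32.4% acinar marker UMIs. With each cell thinned to 1000 UMIs, leaving out 1, 20 and 220 shallower ductal-like cells, the share with an Irs2 UMI was 15.8%, 8.92% and 5.77%, and the log2 ratio of diabetic-Exercise over diabetic was -0.55 in place of -0.99. With a mitochondrial ceiling of 10% the log2 ratios were -1.11 and -0.99. With acinar RNA subtracted they were -1.16 and -0.99.

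Ductal-like cells came from 2 clusters, and Irs2 differed between them. The larger cluster, led by Spp1, Cp and Ambp, had 203, 600 and 876 cells, and its Irs2 was 221, 147 and 87.3 plain CPM. The smaller, led by Onecut2, Tspan8 and Krt19, had 1, 194 and 332 cells, and its Irs2 was 48.1 in diabetic and 33.9 in diabetic-Exercise. In the larger cluster alone the log2 ratios were -0.89 and -0.75, so both fell inside 2-fold. Igf1r in the larger cluster was 173, 262 and 322 plain CPM, in the opposite order to Irs2. Over all ductal-like cells Igf1r rose less after scaling, at 94.1, 103 and 121 scaled CPM.

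**Figure D4:**
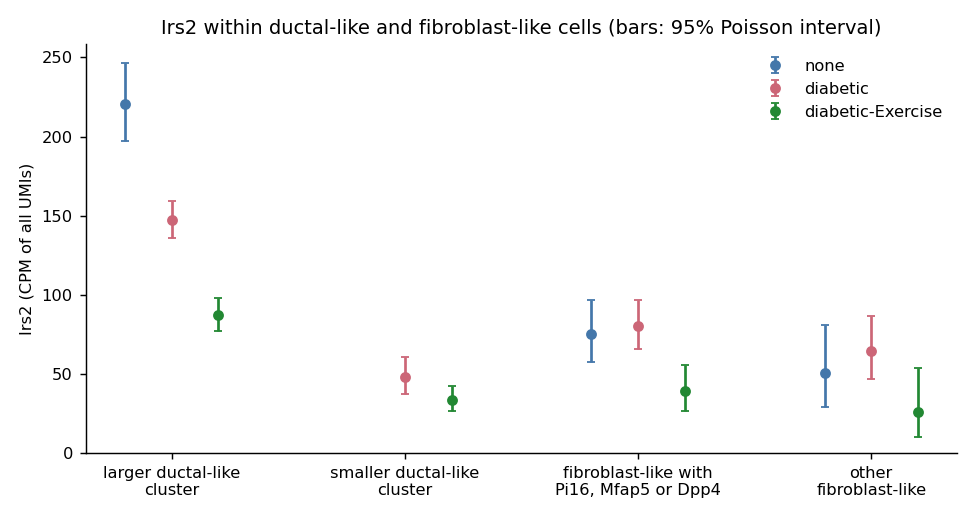
Irs2 (CPM of all UMIs, not TMM-scaled, linear axis from 0) in the 2 ductal-like clusters and in fibroblast-like cells with or without a UMI of Pi16, Mfap5 or Dpp4; bars are 95% Poisson intervals. The smaller ductal-like cluster had 1 cell in none, which is not drawn; the diabetic-Exercise library is lowest in each set.

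Irs2 in fibroblast-like cells was similar in none and diabetic and lower in diabetic-Exercise. Diabetic-Exercise over diabetic was 0.443 (0.302 to 0.636), where 3.56% of genes were at least 2-fold lower, and diabetic over none was 0.873 (0.661 to 1.16). Cells with a UMI of Pi16, Mfap5 or Dpp4 had 75.5, 80.2 and 39.5 plain CPM, and the other fibroblast-like cells 50.6, 64.7 and 26.2, so the order was the same in both. Median depth was 3405.5, 3074 and 2531 UMIs, and after thinning the log2 ratio of diabetic-Exercise over diabetic was -0.29 in place of -1.16. The thinned value rests on few UMIs, found in 33 and 13 cells. In macrophage-like cells the Irs2 ratios were 1.52 (0.910 to 2.56) and 0.917 (0.550 to 1.52).

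Most ratios of the receptors lay nearer 1. Igf1r in ductal-like cells was 1.09 (0.952 to 1.26) for diabetic over none and 1.18 (1.09 to 1.27) for diabetic-Exercise over diabetic. In acinar-like cells Igf1r was 1.37 (1.17 to 1.60) and Insr 1.32 (1.12 to 1.55) for diabetic over none. Insr in endothelial-like cells was 1.02 (0.664 to 1.64) and 1.15 (0.853 to 1.54). Lepr in endothelial-like cells was 1.11 (0.460 to 3.23) and 1.30 (0.723 to 2.28), so differences of 2-fold were not excluded by counting error. Irs1 in fibroblast-like cells was 1.38 (0.738 to 2.72) and 0.961 (0.553 to 1.63).

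The other members past 2-fold rested on small counts. Insr in macrophage-like cells had 34 UMIs in none and 11 in diabetic, a ratio of 0.352 (0.161 to 0.712), where 4.13% of genes were at least 2-fold lower. In the diabetic-Exercise library it had 15 UMIs. In mural-like cells, 45 in the none library, Insr had 20 UMIs in diabetic against 0, at least 1.62-fold higher if none is set to a floor of 3 UMIs. Igf1r there had 39 against 3 UMIs, a ratio of 3.16 (1.005 to 15.99). In mural-like cells 19.9% of genes were at least 2-fold higher and the median log2 ratio of all genes was 0.28.

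The rest of the pathways was described with 6 gene lists. Genes of the leptin receptor, JAK and STAT list were lower in ductal-like cells: 10 of 14 tested were higher in endothelial-like than in ductal-like cells, with 0 the other way, where 21.7% of genes were higher in endothelial-like cells. The list's median log2 difference of ductal-like over endothelial-like was -0.89, against 0.02 over all genes. Among them were Osmr, the oncostatin M receptor (-2.49, edgeR adjusted p 7.441e-11), and Il6st, the shared receptor chain gp130 (-1.98, edgeR adjusted p 6.343e-09). Against fibroblast-like cells, 11 of 14 were lower in ductal-like cells and 0 higher, with 24.0% of genes higher in fibroblast-like cells and a list median of -1.01 against -0.01 over all genes. Ghr, the growth hormone receptor, differed by -2.30 there (edgeR adjusted p 2.089e-10).

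Of the insulin and IGF receptor signalling list, 0 of 28 measured genes were at least 2-fold apart in ductal-like cells in either comparison, where 9.69% (diabetic over none) and 5.12% (diabetic-Exercise over diabetic) of all genes were, and the list medians were -0.0008 and 0.003 on the log2 scale, against 0.01 and 0.05 over all genes. Of the leptin receptor, JAK and STAT list, 0 of 15 were 2-fold apart in either comparison, against the same 9.69% and 5.12%. Lifr, the LIF receptor, was lowest for diabetic over none at 0.585 (0.488 to 0.705). The ends of the insulin and IGF list for diabetic over none were Foxo3, a FOXO factor, at 0.671 (0.553 to 0.819) and Pik3r2, a phosphatidylinositol 3-kinase subunit, at 1.70 (0.976 to 3.21). For diabetic-Exercise over diabetic they were the adaptors Grb2 at 0.752 (0.639 to 0.886) and Shc1 at 1.46 (1.15 to 1.86).

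Of the brakes on both pathways, 3 of 15 measured were at least 2-fold higher in ductal-like cells of the diabetic library than of none, where 6.15% of genes were, and 0 were at least 2-fold lower. The list did not rise as a set: 5 of the 15 lay above 0 and 10 below on the log2 scale, with a median of -0.05. Of all genes, 51.1% lay above 0. Socs3, a feedback inhibitor of cytokine, leptin and insulin receptors, was at 24.9, 101 and 94.6 scaled CPM, with a ratio of 4.08 (3.18 to 5.32) for diabetic over none. It differed between the 2 ductal-like clusters, whose makeup differs between libraries: plain CPM was 40.9, 88.0 and 53.6 in the larger cluster, and 624 and 461 in the diabetic and diabetic-Exercise cells of the smaller, which had 1 cell in none. Socs1 had 2 UMIs in none and 52 in diabetic, a ratio of 5.39 (1.42 to 45.7), and 18 in diabetic-Exercise, a ratio of 0.329 (0.181 to 0.572) over diabetic. The third, Trib3, an inhibitor of Akt, rested on 32 against 2 UMIs, a ratio of 3.32 (0.847 to 28.6). In fibroblast-like cells Socs3 was 204, 265 and 95.6 scaled CPM, and in endothelial-like cells 122, 158 and 77.95.

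FOXO target genes other than Irs2 did not move as one in ductal-like cells. For diabetic over none, 9 of 17 measured lay above 0 and 8 below on the log2 scale, where 51.1% of all genes lay above 0, with Gadd45a at 2.49 (1.47 to 4.54), Sesn3 at 2.25 (1.24 to 4.46) and Trib1 at 0.752 (0.634 to 0.896). For diabetic-Exercise over diabetic, 12 of 18 lay above 0 and 6 below, where 55.7% of all genes lay above 0, with a median of 0.23, and Cited2 was lowest at 0.605 (0.535 to 0.683). Of the genes for insulin-induced lipid synthesis, 13 of 15 lay above 0 in that comparison, where 55.7% of all genes did, with a median of 0.30 and 0 past 2-fold. For diabetic over none, 5 of 15 lay above 0, with a median of -0.28. There Acaca, which encodes acetyl-CoA carboxylase, was at 2.80 (1.03 to 10.7; 54 against 4 UMIs) and Scd1, a fatty acid desaturase gene, at 0.511 (0.261 to 1.06). For diabetic-Exercise over diabetic, Sqle, which encodes squalene epoxidase of cholesterol synthesis, was at 1.76 (1.23 to 2.56).

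Among the ligands, Lep, which encodes leptin, and Igf2 had 0 UMIs in every class fitted. Igf1, the main ligand of Igf1r, was at 145, 79.99 and 66.9 scaled CPM in acinar-like cells and 116, 208 and 183 in fibroblast-like cells. It was at 101, 76.5 and 65.4 in macrophage-like cells and 13.8, 15.7 and 22.2 in ductal-like cells, where Igf1r was highest. Acinar-like levels of the ligands rest on the scaling. Without it, acinar-like Igf1 was below fibroblast-like and macrophage-like Igf1 in every library. In none, Igf1 had 1459 of 41612100 acinar-like UMIs, 166 of 1157550 fibroblast-like and 163 of 1395553 macrophage-like UMIs. Ins2, an insulin gene of islet beta cells, had UMIs in every class, at 124.9, 353 and 167 scaled CPM in acinar-like cells, and the part of free RNA in this was not tested.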

How the data were processed

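RNA of single mouse pancreas cells was measured in 3 libraries with the 10x Chromium 3-prime kit, per the labels' protocols. The authors deposited whole UMI counts per gene and barcode, with no normalization. Cell Ranger made them, in version 7.1.0 per the submitters' processing notes and 6.1.2 per the file headers. No source used here states the genome build. The members and gene lists were chosen with earlier results of these data known.

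Barcodes were kept with at least 500 UMIs, 200 genes and at most 20% mitochondrial UMIs. Scrublet's own threshold marked 0% of barcodes, so the top 5% by score per library were removed. Cells were clustered together (scanpy 1.11.5, 2000 variable genes without the members, 30 components, 15 neighbours, Leiden resolution 1). A name needed at least 2 fixed markers among 10 leading genes (3 where acinar genes held over 50% of UMIs), more than of all other classes together, and 3 markers in at least 10% of cells. These naming details were set after the data were seen. Differences from the study may come from these rebuilt names.

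UMIs were summed per class and library and TMM-scaled together. Classes were compared with edgeR 4.0.16 (quasi-likelihood, library as a block). Libraries were compared by ratios, counted from 20 UMIs and 2-fold, with a prior count of 0.5. Counts of 0 use a floor of 3 UMIs. The test was checked on simulated data for endothelial-like over fibroblast-like cells. It recovered 13% of 2-fold and 90% of 4-fold differences, with 4 false calls. Pairs of classes that did not pass may therefore still differ by 2-fold or more. No other pair was simulated, and larger differences can be missed where UMIs are few. For example, Lepr in mural-like over ductal-like cells did not pass at a log2 difference of 3.18 (edgeR adjusted p 0.1081). Named were the 5 members in every class, the 3 genes most like each, the ends of each list in ductal-like cells, the ligands and Leprot. Some genes of the lists are counted but not reported by name here.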

Additional observations from a re-analysis of the deposited data

Results flagged for a closer look

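Insr moved in opposite directions in different classes of the diabetic library against none. It was lower in macrophage-like cells (ratio 0.352, 11 against 34 UMIs) and higher in acinar-like cells (ratio 1.32), and it was higher in mural-like cells (20 against 0 UMIs). The difference between the classes was not tested, since each group has 1 library.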

How the results depend on the processing

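Without the replicate block for the library, 43 of 105 tests between classes passed in place of 52. The pairing comes from classes of 1 library sharing its cells' preparation. No paired analysis was possible because each treatment group has 1 library, for the ratios between libraries. Leaving out each library in turn gave 36 to 50 calls between classes, with less power from 2 libraries. Thinned to 1000 UMIs, 30 of 63 tests passed. For diabetic over none, 2 of 11 combinations were past 2-fold after thinning and 7 of 27 with no filter on low genes, against 4. For diabetic-Exercise over diabetic, 0 of 11 were past 2-fold after thinning, 7 of 29 with no filter, and 2 each with a mitochondrial ceiling of 10%, at resolution 2, with libraries clustered apart and with scaling within each class, against 1. Scaling within each class and the use of the largest ductal-like cluster alone were chosen after seeing the data.

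Some tests between classes turned direction, and the cause was not tested. With median-of-ratios factors, the log2 difference became -0.77 for Insr in acinar-like over ductal-like, -0.27 for Igf1r in acinar-like over macrophage-like, 0.79 for Irs1 in endothelial-like over acinar-like and -0.18 for Irs2 in macrophage-like over mural-like cells. DESeq2 gave -0.77, -0.27, 0.84 and -0.089 for the same 4, and -2.14 for Lepr in acinar-like over macrophage-like cells. The total outside acinar and mitochondrial genes gave -0.59 for Insr, 0.33 for Irs1 and -0.37 for Irs2 in those pairs. Thinning gave -0.17 for Insr in acinar-like over ductal-like and -0.21 for Igf1r in mural-like over endothelial-like cells. Leaving out each library in turn, the log2 difference ran from -1.79 to 5.55 for Lepr in fibroblast-like over mural-like, -3.19 to 4.47 for Lepr in mural-like over ductal-like, -0.40 to 0.30 for Insr in fibroblast-like over mural-like, -0.10 to 1.54 for Insr in mural-like over macrophage-like, -0.00807 to 0.26 for Igf1r in mural-like over endothelial-like, -0.24 to 1.10 for Irs1 in ductal-like over endothelial-like, -0.86 to 0.68 for Irs1 in endothelial-like over acinar-like and -0.077 to 0.43 for Irs2 in macrophage-like over mural-like cells. Over the alternatives, the log2 excess of endothelial-like Lepr ran from 2.59 to 4.09 over fibroblast-like and from 5.05 to 6.09 over ductal-like cells, and that of ductal-like Irs2 over endothelial-like cells from 4.33 to 7.88. The log2 ratio of Irs2 in ductal-like cells ran from -1.16 to -0.89 for diabetic over none and from -1.06 to -0.55 for diabetic-Exercise over diabetic. Low UMI counts limit Lepr and Irs1 outside their top class.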
